A study of Homo sapiens with 12 samples.

Results

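The granins are acidic secreted proteins of the dense-core secretory granule, the organelle in which endocrine cells and neurons store peptide hormones. The 8 genes described here were taken by their symbols from a table of 35337 genes, of which 22707 had a read in at least 1 library: CHGA, CHGB, SCG2, SCG3, SCG5, VGF, PCSK1N and SCGN. The cells were EndoC-βH3, a beta-cell line derived from human fetal pancreas that divides through hTERT and the SV40 large T antigen, both of which are cut out when tamoxifen activates a recombinase. All 12 libraries came from this 1 line, 6 from senescent cells treated with 4-hydroxytamoxifen (4-OHT) for 3 weeks and 6 from untreated, non-senescent cells, both labelled as wild type. The letter in the replicate names, A or B, was taken as the batch, with 2 libraries of each group in batch A and 4 of each in batch B.

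In a beta cell the granins condense with proinsulin in the trans-Golgi network and are packed into new granules, where they are cut into peptides that are released together with insulin. CHGA and CHGB encode the chromogranins, and SCG2 and SCG3 encode secretogranins of the granule core, of which secretogranin III also ties the core to the granule membrane. SCG5 encodes 7B2, the chaperone of the prohormone convertase PC2, and PCSK1N encodes proSAAS, an inhibitor of the convertase PC1/3. VGF encodes a nerve growth factor-inducible granin, and SCGN encodes secretagogin, a calcium sensor with EF hands that lies in the cytosol and is no granin by structure.

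The stretch before the start site is shown for 4 of the genes: CHGA, the gene with the most reads, VGF, which shares a motif with it, and PCSK1N and SCGN, which changed in opposite directions. The cAMP response element (CRE, TGACGTCA) and the GC box (GGGCGG), bound by CREB-family and Sp-family factors, were searched on both strands in the 300 bases from 250 before to 50 after the start, and their letters are in capitals. The sequences are the 150 bases before the RefSeq start on GRCh38.p14, 5′ to 3′ on the strand of the gene, at chr14:92923000-92923149 (plus strand) for CHGA, chr7:101165570-101165719 (minus strand) for VGF, chrX:48835611-48835760 (minus strand) for PCSK1N and chr6:25652065-25652214 (plus strand) for SCGN.
CHGA: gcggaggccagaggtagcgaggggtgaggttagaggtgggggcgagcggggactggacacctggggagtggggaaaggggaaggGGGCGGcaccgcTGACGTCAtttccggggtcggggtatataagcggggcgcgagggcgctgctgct
VGF: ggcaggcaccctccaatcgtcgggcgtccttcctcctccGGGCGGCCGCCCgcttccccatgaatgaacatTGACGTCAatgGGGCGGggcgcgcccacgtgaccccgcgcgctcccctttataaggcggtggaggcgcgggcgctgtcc
PCSK1N: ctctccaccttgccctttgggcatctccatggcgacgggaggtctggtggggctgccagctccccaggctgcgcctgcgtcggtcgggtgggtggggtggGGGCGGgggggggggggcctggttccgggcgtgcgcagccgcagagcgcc
SCGN: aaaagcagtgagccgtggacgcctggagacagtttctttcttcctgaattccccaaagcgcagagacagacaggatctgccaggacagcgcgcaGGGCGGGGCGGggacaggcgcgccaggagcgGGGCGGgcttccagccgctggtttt
Of the 8 genes, 6 were in the promoter table, which has no entry for CHGB and SCG2. The full CRE was found 54 bases before the CHGA start and 79 bases before the VGF start, in none of the windows of SCG3, SCG5, PCSK1N and SCGN, and in 1.85% of the 35116 promoters of the table. The GC box was found once each for CHGA, SCG3, SCG5 and PCSK1N, 3 times for SCGN and 4 times for VGF, and 45.0% of all promoters hold it. The first 2 of the GC boxes of SCGN overlap by 1 base, and the first 2 of VGF lie end to end on opposite strands. These are matches of letters and not measured binding sites.

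The values are normalised read counts, that is reads of the 3′ end of a transcript divided by a size factor of the library. A gene was called when its Benjamini-Hochberg adjusted p in limma, over the 13847 genes with a mean of at least 5, was under 0.1 and its fold change, with a batch term, was over 1.5. All 8 genes passed this filter on low values. Of them, 3 were called higher in senescent cells (CHGB, PCSK1N and SCG5), where 11.6% of all tested genes were, 2 were called lower (SCGN and VGF), where 11.8% were, and 3 were not called (CHGA, SCG2 and SCG3). The median log2 fold change of the 8 genes was 0.17, against 0.01 over all tested genes. The same 3 genes were above and the same 2 below, without overlap of the groups, within each batch, as were 11.9% and 11.9% of all tested genes in the 2 directions. Replicates are libraries of 1 line, and no source used here says whether they came from separate cultures, so the p-values measure the spread between these libraries, which may be technical. In bulk samples, fewer cells of a type and less RNA per cell cannot be told apart.

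**Figure D1:**
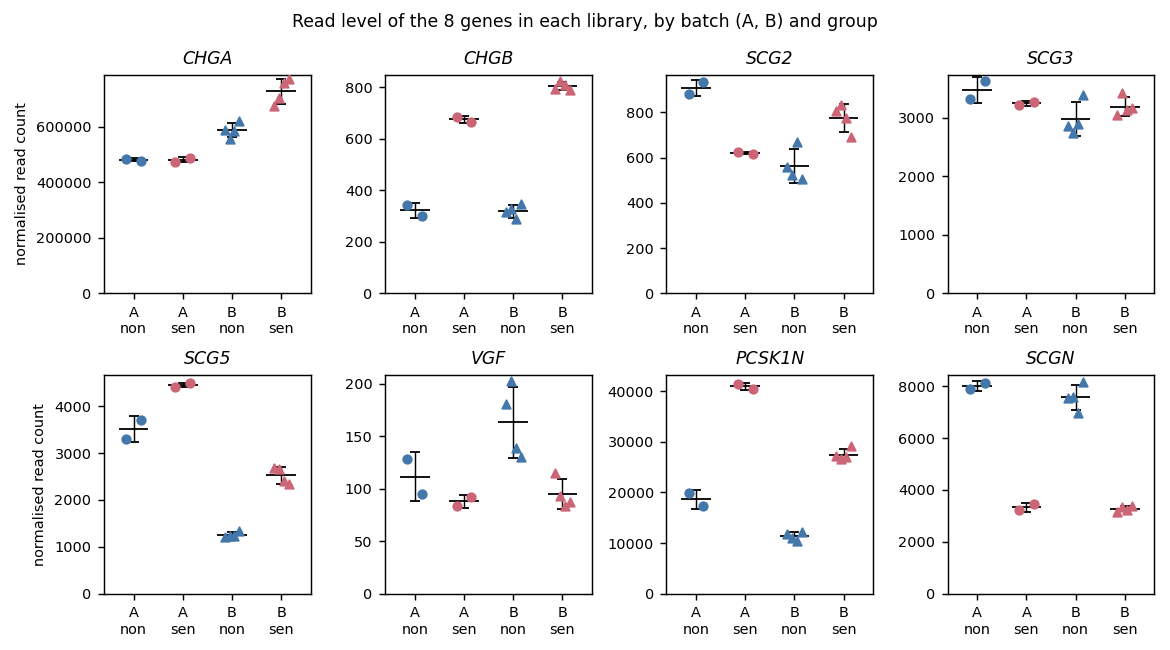
Normalised read count (vertical axis, linear from 0) of each of the 8 genes in the 12 libraries, with circles for batch A, triangles for batch B, blue for non-senescent (non) and red for senescent (sen) cells, and lines and bars for the mean ± SD of each group within a batch (n = 2 in A, n = 4 in B). CHGB, PCSK1N and SCG5 lie higher in the senescent libraries of both batches and SCGN and VGF lower, whereas SCG2 lies lower in batch A and higher in batch B.

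The libraries held 8873569 to 17106776 reads in batch A and 4672924 to 7063264 in batch B. MKI67, a marker of cycling cells, had 411 to 735 normalised reads in non-senescent and 63.7 to 88.4 in senescent libraries. CDKN1A, which encodes the cell cycle inhibitor p21, had 24.5 to 76.0 in non-senescent libraries, 133 and 134 in the senescent libraries of batch A and 1286 to 1501 in those of batch B. All 10 beta-cell markers examined had reads, and their sum, mostly INS, was 25684 to 47945 in non-senescent and 68054 to 206878 in senescent libraries. The markers did not move as one: PDX1 was 2581 to 3121 and 3805 to 4785, NKX6-1 329 to 603 and 333 to 384, SLC30A8 2348 to 4555 and 2560 to 2957, and UCN3 548 to 752 and 299 to 665. The cells also carried much RNA of other islet hormones: the sum of 3 delta-cell markers, nearly all of it SST, was 159957 to 287950 in non-senescent and 115196 to 142740 in senescent libraries. The sum of 5 alpha-cell markers, mostly TTR, was 49292 to 124131 and 155263 to 244267. The sums were 33.9 to 58.4 and 144 to 251 for 4 acinar markers, mostly CPA1, and 240 to 379 and 79.9 to 160 for 3 duct markers, mostly KRT19. PPY had at most 2.75, and VWF, PDGFRB and CD3E had 0 reads in all 12 libraries. The INS, PDX1, SST, TTR, CPA1 and KRT19 levels moved with the groups, and their part in the results was not tested.

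Chromogranin A (CHGA, chr14:92923150-92935285, plus strand in GRCh38) was the gene with the most reads in each of the 12 libraries and took 6.18% to 10.4% of all reads. In batch A its normalised read count was 485832 and 478600 in the non-senescent libraries and 474757 and 487786 in the senescent ones. In batch B it was 590444, 557681, 584595 and 621389 in non-senescent cells and 675836, 706021, 759678 and 772538 in senescent cells. The groups overlapped in batch A, while in batch B all 4 senescent libraries were above the 4 non-senescent ones. The log2 fold change of CHGA over both batches was 0.20 ± 0.08 (SE) with a limma adjusted p of 0.0653, a fold of 1.15 that stayed under the limit. It was -0.003 ± 0.11 within batch A (adjusted p = 0.994) and 0.31 ± 0.08 within batch B (adjusted p = 0.00526). Fitted on batch B alone, the same 0.31 had an SE of 0.22 (limma adjusted p = 0.329). With no filter on low values, the value over both batches had an SE of 0.20 (limma adjusted p = 0.558). DESeq2 on whole reads gave it an adjusted p of 0.00836, so the p of CHGA depended on the fit. The difference between the batches, 0.31 ± 0.13, did not pass (adjusted p = 0.273).

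Because CHGA takes so many reads, its share of the library was compared as well. As a percentage of all reads CHGA lay on opposite sides in the batches: 6.79% and 6.83% in non-senescent against 6.18% and 6.18% in senescent cells in batch A, and 8.09% to 8.70% against 8.96% to 10.4% in batch B. The other 7 genes together took 0.484% to 0.503% of reads in non-senescent and 0.673% to 0.699% in senescent cells of batch A, and 0.331% to 0.365% and 0.502% to 0.531% in batch B. This sum was higher in senescent cells of both batches, with PCSK1N as its largest part.

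**Figure D2:**
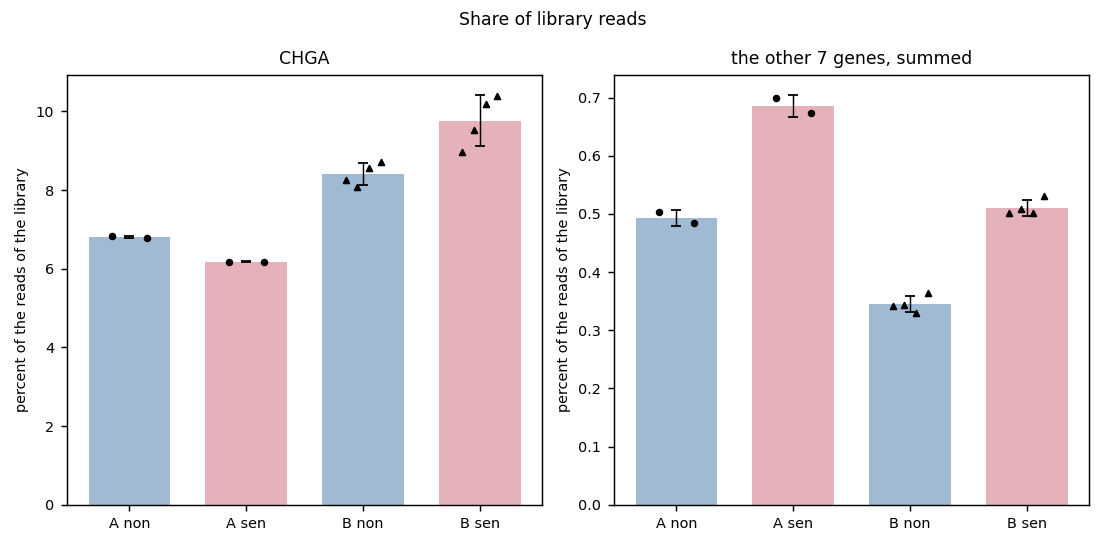
Percentage of the reads of a library (vertical axes, from 0) taken by CHGA (left) and by the other 7 genes together (right), with bars for the mean, error bars for the SD (n = 2 in batch A, n = 4 in batch B), points for libraries, blue for non-senescent (non) and red for senescent (sen). CHGA took 6.18% in senescent and 6.79% to 6.83% in non-senescent cells of batch A but a larger share in senescent cells of batch B, and the sum of the other 7 averaged 0.345% in non-senescent and 0.511% in senescent cells of batch B.

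Chromogranin B (CHGB, chr20:5911510-5925353, plus strand) rose 2.37-fold. Its normalised read counts were 343 and 302 in the non-senescent and 684 and 667 in the senescent libraries of batch A. In batch B they were 315, 326, 288 and 345 in non-senescent and 795, 823, 809 and 788 in senescent cells. The lowest senescent library was well above the highest non-senescent one over both batches, at 667 against 345. The log2 fold change was 1.25 ± 0.08 (limma adjusted p = 1.54e-09), with 1.07 ± 0.12 within batch A and 1.34 ± 0.08 within batch B. Unlike most of the 8 genes, CHGB had much the same level in the non-senescent cells of both batches (batch B minus batch A, log2, -0.02 ± 0.10, adjusted p = 0.891). The 2 chromogranins therefore gave different values in the same libraries, 1.15-fold for CHGA and 2.37-fold for CHGB, and the difference between them was not tested.

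Secretogranin II (SCG2, chr2:223596940-223602361, minus strand) was apart between the groups in both batches, but in opposite directions. In batch A the SCG2 normalised read counts were 881 and 933 in non-senescent and 624 and 617 in senescent cells. In batch B they were 557, 524, 669 and 503 in non-senescent and 806, 831, 773 and 689 in senescent cells. The groups did not overlap within either batch, senescent cells being lower in A and higher in B. The log2 fold change was -0.55 ± 0.13 within batch A (limma adjusted p = 0.00983) and 0.46 ± 0.09 within batch B (adjusted p = 0.00116). Neither reached 1.5-fold. The difference, 1.01 ± 0.16, passed the test of the batch by group interaction (adjusted p = 0.00359), as did SCG5 among the 8 genes and 4.21% of all tested genes, so the value over both batches, 0.13 ± 0.14 (adjusted p = 0.511), averages opposite changes. Non-senescent cells differed too, SCG2 being lower in batch B by 0.69 on the log2 scale (-0.69 ± 0.12, adjusted p = 0.000108). As a share of all reads, SCG2 was again lower in senescent cells of batch A, while the groups overlapped in batch B. The CDKN1A level of senescent cells, 133 and 134 in batch A and 1286 to 1501 in batch B, differed between the same libraries, and its part in this was not tested.

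For secretogranin III (SCG3, chr15:51681492-51721026, plus strand) the groups did not differ by the test. The SCG3 normalised read counts were 3319 and 3624 in non-senescent and 3216 and 3273 in senescent cells of batch A. In batch B they were 2866, 2745, 2892 and 3392 in non-senescent and 3039, 3418, 3130 and 3162 in senescent cells. The senescent libraries lay just below the non-senescent ones in batch A, and the groups overlapped in batch B. The log2 fold change of SCG3 was 0.04 ± 0.07 (limma adjusted p = 0.702), and it turned to -0.07 when every library was scaled to the same total. Within the batches it was -0.10 ± 0.10 and 0.10 ± 0.07 (difference 0.20 ± 0.13, adjusted p = 0.496).

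**Figure D3:**
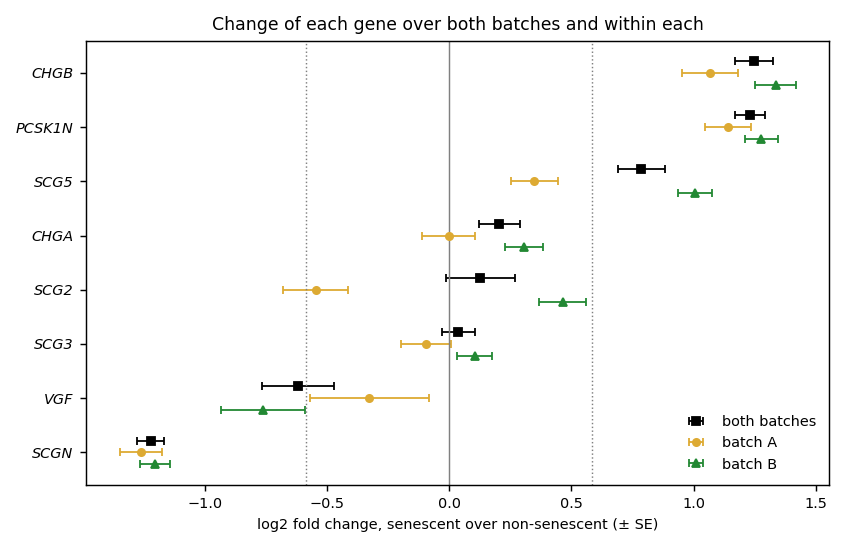
Log2 fold change of senescent over non-senescent cells (horizontal axis) for each gene, with squares for the fit over both batches (12 libraries), circles for batch A and triangles for batch B, bars for the SE and dotted lines at 1.5-fold in either direction. The batch values of SCG2 lie on opposite sides of 0, at -0.55 and 0.46, and those of SCGN nearly coincide, at -1.26 and -1.20.

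The 2 partners of the prohormone convertases, SCG5 and PCSK1N, both rose. SCG5 (chr15:32641676-32697098, plus strand) had 3309 and 3705 normalised reads in non-senescent and 4418 and 4490 in senescent cells of batch A. In batch B it had 1214, 1236, 1230 and 1338 in non-senescent and 2687, 2657, 2397 and 2349 in senescent cells. Senescent cells were higher in each batch, but the non-senescent cells of batch A were higher than the senescent cells of batch B, so the groups overlapped when batches were pooled. The log2 fold change of SCG5 was 0.79 ± 0.10 (limma adjusted p = 5.37e-06, 1.72-fold) over both batches. It was 0.35 ± 0.10 within batch A (adjusted p = 0.0214), under the fold limit, and 1.01 ± 0.07 within batch B (adjusted p = 2.08e-08), and the difference of 0.66 ± 0.12 passed (adjusted p = 0.00737). Without a batch term SCG5 was not called (adjusted p = 0.135). The level in non-senescent cells was lower in batch B by 1.48 on the log2 scale (-1.48 ± 0.08, adjusted p = 1.01e-09). By GENCODE v44, a read-through gene, ARHGAP11A-SCG5, shares the strand of SCG5 and has no row in the table. Its annotated span does not cover the last base of SCG5 at the 3′ end, and whether the 2 share reads was not tested.

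PCSK1N (chrX:48831096-48835610, minus strand) had 19923 and 17321 normalised reads in non-senescent and 41441 and 40466 in senescent cells of batch A. In batch B it had 11685, 11072, 10384 and 12185 in non-senescent and 27264, 26507, 26943 and 29059 in senescent cells. Every senescent library was above every non-senescent one. The log2 fold change was 1.23 ± 0.06 (limma adjusted p = 1.16e-10, 2.35-fold), with 1.14 ± 0.09 within batch A and 1.28 ± 0.07 within batch B (difference 0.14 ± 0.12, adjusted p = 0.638). The level in non-senescent cells of batch B was below that of batch A (-0.72 ± 0.08, adjusted p = 2.45e-06), whereas the change was of like size in both, with an SE of 0.12 on the difference.

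VGF (chr7:101162509-101165569, minus strand) fell, at low read numbers. Its normalised read counts were 128 and 95.4 in non-senescent and 83.5 and 92.4 in senescent cells of batch A. In batch B they were 181, 202, 139 and 130 in non-senescent and 115, 93.4, 83.6 and 87.2 in senescent cells. The groups were apart within each batch, narrowly so in batch A, and overlapped when the batches were pooled, since the non-senescent library of 95.4 lay below the senescent library of 115. These values rested on 70 to 230 reads per library. The log2 fold change was -0.62 ± 0.15 (limma adjusted p = 0.00301), which is 1.53-fold lower and just past the limit of 1.5. It fell short of that limit without non-senescent replicate B1 (-0.57), non-senescent replicate B2 (-0.53), senescent replicate B3 (-0.57) or senescent replicate B4 (-0.58), and with a pseudocount of 8 (-0.58). Within batch A the change was -0.33 ± 0.24 (adjusted p = 0.430) and within batch B -0.76 ± 0.17 (adjusted p = 0.00238).

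SCGN (chr6:25652201-25701783, plus strand) fell, to 0.417 of the non-senescent mean in batch A and 0.434 in batch B. Its normalised read counts were 7879 and 8136 in non-senescent and 3218 and 3465 in senescent cells of batch A. In batch B they were 7561, 7591, 6970 and 8159 in non-senescent and 3156, 3345, 3237 and 3397 in senescent cells. The highest senescent library, at 3465, was far below the lowest non-senescent one, at 6970. The log2 fold change of SCGN was -1.22 ± 0.06 (limma adjusted p = 3.01e-11), which is 2.33-fold lower. It was -1.26 ± 0.09 within batch A and -1.20 ± 0.06 within batch B, a difference of 0.06 ± 0.11 (adjusted p = 0.854). The batches also differed little in non-senescent cells (-0.08 ± 0.08, adjusted p = 0.368). In GENCODE v44 a gene model without a symbol lies on the same strand over the 3′ end of SCGN, and reads of the 2 could not be separated here.

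INS, the main cargo of the beta-cell granule, rose 4.70-fold (log2 fold change 2.23 ± 0.11, limma adjusted p = 1.26e-10), more than any of the 8 genes. Read against INS in the same library, all 8 genes were therefore lower in senescent cells of both batches, without overlap within a batch. This is not particular to the 8 genes. Of all tested genes, 96.7% had a log2 fold change below that of CHGB, the highest of the 8, and so also below that of INS. CHGA had 14.2 and 17.8 reads per read of INS in the non-senescent and 2.83 and 2.63 in the senescent libraries of batch A, and 34.6 to 53.0 and 11.4 to 13.6 in batch B. The ratio of SCGN to INS in senescent cells was 0.0961 of its non-senescent mean over both batches, and that of PCSK1N was 0.519 of it. The ratio of CHGB overlapped between the groups when the batches were pooled, at 0.00999 to 0.0261 in non-senescent and 0.00359 to 0.0160 in senescent libraries. These ratios are a description without a test, and depend on INS as much as on the genes.

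**Figure D4:**
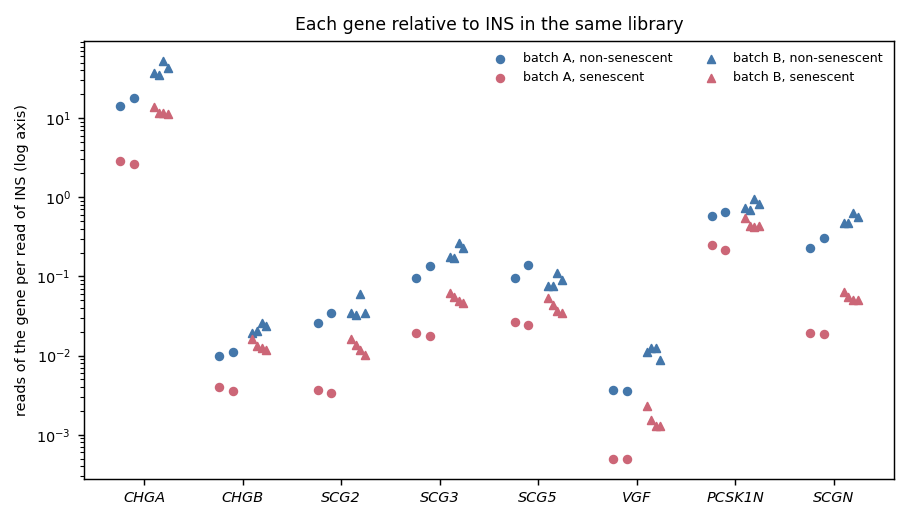
Reads of each gene per read of INS in the same library (vertical axis, log scale), with circles for batch A, triangles for batch B, blue for non-senescent and red for senescent cells. Within each batch the senescent libraries lie below the non-senescent ones for all 8 genes (for CHGA 14.2 and 17.8 against 2.83 and 2.63 in batch A). INS itself rose more than at least 96.7% of all tested genes, so a lower ratio is not particular to the 8.

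The other genes of the granule were counted over 7 lists holding 65 genes apart from the 8, of which 52 passed the filter, 11 were called higher and 8 lower, where 11.6% and 11.8% of all tested genes were. The 11 became 7 when every library was scaled to the same total, and the 8 became 4 without a batch term. Among the 7 prohormone processing enzymes 2 rose and 1 fell, with a median log2 fold change of 0.51. PAM, which amidates peptide ends, rose by 0.92 ± 0.22 (limma adjusted p = 0.00332), and CPE, which trims basic residues, by 0.77 ± 0.11 (adjusted p = 2.73e-05). Of the 7, 4 passed the interaction test, which 4.21% of all tested genes passed: PAM at -0.15 in batch A and 1.45 in batch B, CPE at 0.27 and 1.02, PCSK1 at -1.55 and -0.81, and CTSL, not called, at -0.40 and 0.50. PCSK1, the convertase PC1/3 that proSAAS inhibits, had a log2 fold change of -1.06 ± 0.12 (adjusted p = 3.47e-06), opposite in direction to PCSK1N. PCSK2, the convertase PC2 that 7B2 serves, was at 0.53 ± 0.07 (adjusted p = 1.84e-05) and under the fold limit, at 0.50 and 0.55 in the 2 batches.

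Of 13 hormone and peptide genes 7 were tested, with a median of -0.63. Of these, 2 rose and 4 fell, against 11.6% and 11.8% of all tested genes. Besides INS, IAPP (amylin) rose by 1.87 ± 0.07 (limma adjusted p = 2.34e-12). NPY was at -1.46 ± 0.19 (adjusted p = 1.11e-05) and GCG, the glucagon gene, at -1.30 ± 0.19 (adjusted p = 4.21e-05). Of the 7 tested, 5 also passed the interaction test, against 4.21% of all tested genes, among them NPY at -2.47 in batch A and -0.96 in batch B and GCG at -2.36 and -0.77. The called cargo genes thus lay on both sides, as the 8 genes did.

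Of 14 granule membrane genes 11 were tested, with a median of 0.01. Of these, 3 were called higher and 1 lower, against 11.6% and 11.8% of all tested genes. PTPRN (IA-2) rose by 0.98 ± 0.07 (limma adjusted p = 8.09e-09) and its paralog PTPRN2 by 0.62 ± 0.09 (adjusted p = 4.03e-05). CYB561, a granule cytochrome, was at 0.59 ± 0.09, which is 1.503-fold and just past the limit of 1.5. SLC18A2, the vesicular monoamine transporter, was at -0.89 ± 0.37 (adjusted p = 0.0697), from a mean of 16.7 normalised reads in non-senescent cells. The zinc transporter SLC30A8 was not called, at -0.16 ± 0.10 (adjusted p = 0.237), a value over batches that differed, -0.63 in A and 0.08 in B (interaction adjusted p = 0.00521).

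All 13 genes of granule biogenesis and cargo sorting were tested, with a median of 0.29. Of these, 2 were called higher, as were 11.6% of all tested genes, and 11 were not called. AP3B1, a subunit of the AP-3 adaptor, rose by 1.51 ± 0.12 (limma adjusted p = 3.98e-08), and CCDC186, which acts in granule maturation, by 0.85 ± 0.11 (adjusted p = 1.38e-05). These were also the 2 of the 13 that passed the interaction test, which 4.21% of all tested genes passed. AP3B1 was at 0.98 in batch A and 1.77 in batch B, and CCDC186 at 0.41, under the fold limit, and 1.07. HID1 was at 0.49 ± 0.08, under the fold limit.

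Of 12 regulators of neuroendocrine genes, all tested, 2 rose and 1 fell, against 11.6% and 11.8% of all tested genes, with a median of 0.11. RCOR1, a corepressor that works with REST, rose by 0.67 ± 0.17 (limma adjusted p = 0.00569). MYT1 rose by 0.60 ± 0.14 (adjusted p = 0.00285), which is 1.52-fold and just past the limit of 1.5. INSM1, a zinc finger factor of endocrine cells, was at -0.63 ± 0.06 (adjusted p = 1.10e-07) with the same value in both batches, -0.63. REST itself, the repressor of neuronal and granin genes, had 29 reads in the 6 non-senescent and 42 in the 6 senescent libraries and was not called (0.76 ± 0.56, adjusted p = 0.308). CREB1, whose protein binds the CRE, was at 0.26 ± 0.14 (adjusted p = 0.158).

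In the family of secretagogin, CALB2 (calretinin) fell as SCGN did, with a log2 fold change of -1.76 ± 0.18 (limma adjusted p = 4.93e-07), -0.86 in batch A and -2.21 in batch B (interaction adjusted p = 0.000641). CALB1 was not tested, with a mean of 4.40 normalised reads in non-senescent and 1.65 in senescent cells. SNAP25, a SNARE protein that secretagogin binds, was at 0.42 ± 0.07 (adjusted p = 0.000236), under the fold limit. None of the 3 receptors of granin peptides passed the filter: GPR83 had a mean of 4.40 normalised reads in non-senescent and 0.740 in senescent cells, GPR171 0.251 and 0, and C3AR1 no read in any library.

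**Figure D5:**
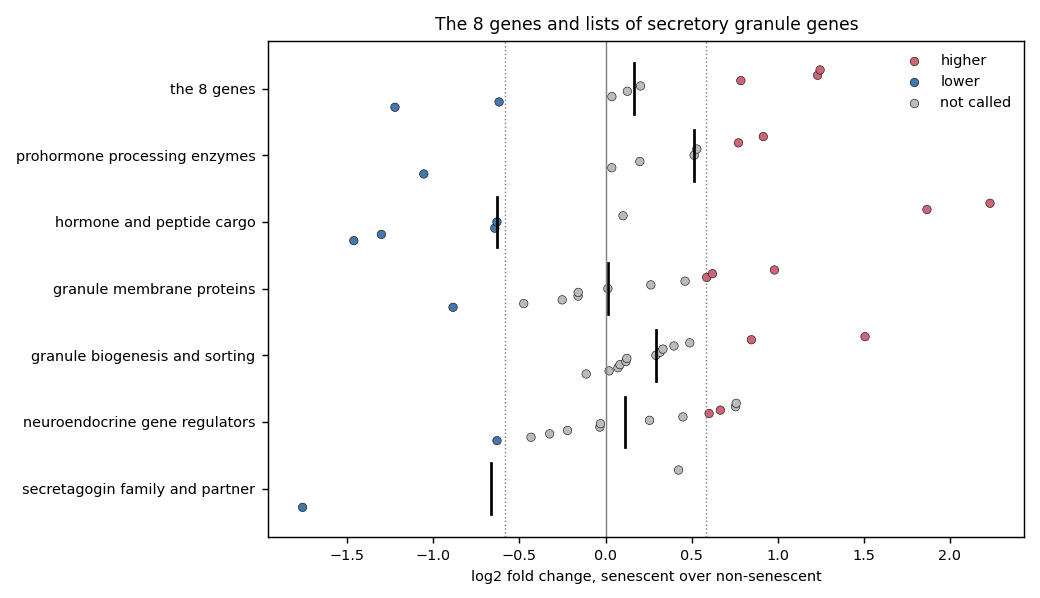
Log2 fold change of senescent over non-senescent cells (horizontal axis, batch-adjusted fit over 12 libraries) of each tested gene among the 8 genes and in 6 lists, with red for called higher, blue for called lower, grey for not called, black bars for the median of a row and dotted lines at 1.5-fold. The 8 genes spread from -1.22 to 1.25 around a median of 0.17, and the hormone genes from -1.46 to 2.23.

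The pattern of each gene over the 12 libraries, centred on the mean of its batch, was compared with 11681 genes of a mean of at least 20 by Pearson r. CHGB and PCSK1N were among the 3 most alike of each other (r = 1.00 to 2 decimals, 0.996 to 3), and FAM92B was near both (r = 0.993 and 0.997). SCGN was most like the cell division genes DSN1 (r = 0.997) and UBE2C (r = 0.996) and the transcription factor gene HES6 (r = 0.995). SCG2 was most like A1CF (r = 0.984) and PKIB (r = 0.956), SCG5 like ATP8A1 (r = 0.990), ASS1 (r = 0.984) and TTR (r = 0.984), and CHGA like DPAGT1 (r = 0.964). VGF was most like COA4 (r = 0.960), and SCG3, which was not called, reached 0.894 with SPCS3. Among the 8 genes, SCGN ran opposite to PCSK1N (r = -0.981) and CHGB (r = -0.977), and VGF opposite to CHGA (r = -0.881). The libraries are shared and the group difference enters every r, so these values describe likeness of level and carry no p.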

How the data were processed

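RNA of 12 samples was measured by CEL-seq2, which reads the 3′ end of transcripts. Per the labels and the methods of the study, the authors used Cutadapt for trimming, Salmon 0.13.1 with GRCh38 for quantification and DESeq2 for normalisation. The transcript annotation, the version of DESeq2 and how molecular identifiers were treated are not given in the sources used here, so a read is not shown to be 1 molecule. The deposited values are a signal, reads divided by a size factor of the library. The authors also deposited a mean signal, log2 fold changes with their errors, a test score and p-values of their own comparison, and these columns were not used.

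Every non-zero value was a whole multiple, within 0.001 reads, of what 1 read was worth in its column (100% of 196021 values), so whole reads were recovered. Totals were 4672924 to 17106776 reads, and a count of 0 allows up to 3 reads, or 0.175 to 0.642 ppm of the reads, which covers counting error only. Libraries of 1 group and batch differed by more than sampling noise in all 14 pairs (chi-square per degree of freedom 4.14 to 7.61).

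limma 3.58.1 in R 4.3.3, with the intensity trend, was fitted to log2(normalised read count + 1) of 13847 genes with a mean of at least 5, with batch and group as terms. Fold changes are on that scale and are too small for low genes. Calls needed a fold over 1.5 and a p under 0.1 after Benjamini-Hochberg adjustment. Values within batches and the difference between batches came from 1 fit with the batch by group interaction (adjusted p under 0.1). edgeR 4.0.16 and DESeq2 1.42.0 on the recovered reads were alternatives, and called 1561 and 1576 genes higher and 1677 and 1647 lower. The procedure was tested on simulated data.

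Members and gene lists were chosen with earlier results of these data known. Named genes were the 8 members, up to 4 called genes per list by size of change, list genes not called as values only, the most alike genes by r, and MKI67 and CDKN1A as checks of the groups. Positions came from GENCODE and promoters from RefSeq. The differences between batches of single genes were recomputed under alternatives added after seeing the data.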

Additional observations from a re-analysis of the deposited data

Results flagged for a closer look

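In senescent cells the VGF normalised read count of replicate B1, 115, lay apart from the other 5 libraries, which ranged from 83.5 to 93.4. Of 32 groups of 4 to 6 libraries examined this was the only one so marked, and chance marks about 1 in 20.

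The senescence response of SCG2 differed between the batches by 1.01 on the log2 scale (batch B minus batch A, limma adjusted p = 0.00359), with 2 of 2 senescent libraries below all non-senescent ones in batch A and 4 of 4 above them in batch B. The response of SCG5 differed by 0.66 (adjusted p = 0.00737), all 6 senescent libraries being above the non-senescent ones of their batch. Batch A had 8873569 to 17106776 reads per library and batch B 4672924 to 7063264, and the part of depth in these differences was not tested.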

How the results depend on the processing

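The counts of calls and the fold changes of the 8 genes were recomputed under 13 alternatives (9 for differences between batches) and without each of the 12 libraries. Single values of listed genes, shares of reads, ratios to INS and values of r were not. The count of genes called higher stayed between 2 and 3, and that of genes whose response differs between batches at 2. The count called lower was 1 with a pseudocount of 8 and in batch A alone, and 1 to 2 with 1 library left out, because VGF fell short of the fold limit. The listed genes called higher numbered 7, not 11, with every library scaled to the same total, and those called lower 4, not 8, with no batch term. In batch A alone CHGA was at -0.0029, SCG2 at -0.55 and SCG3 at -0.10, and with the same total SCG3 was at -0.070. For CHGA the fit on batch B alone gave 0.31 ± 0.22 (limma adjusted p = 0.329). SCG5 was not called without a batch term, where its 0.79 had an SE of 0.33 against 0.10 with the term (limma adjusted p = 0.135). In batch A alone it was at 0.35, under the fold limit, and the cause of this smaller change was not tested. With the same total the median of all tested genes was -0.09 and 37.0% of calls were higher (1226 higher, 2090 lower), against 0.01 and 49.6% otherwise (1605 and 1632). Without a batch term 1037 genes were called higher and 1106 lower.

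Pairing by replicate name was not seen: deviations of samples with the same name correlated at -0.05 to 0.02, with 0 of 6 over 0.1. Of the 6, 0 correlated best with their own name. In batch A, with 2 libraries per group, deviations mirror each other, so A1 and A2 share 1 value, -0.05, and count once. With the replicate block 3 of the 8 genes were called higher and 2 lower, 2 differed between batches, and the listed genes called lower numbered 7. VGF had the fewest reads of the 8 genes, 70 to 230 per library, and the part of depth in its spread was not tested.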
